A study of Mus musculus with 37 samples.

Results

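The genes described here are the Wnt ligands, their Frizzled receptors, the secreted inhibitors of the Sfrp and Dkk families, and 5 genes that report on or limit Wnt signalling. They were chosen by symbol alone, as every row named Wnt, Fzd, Sfrp or Dkk with a number, plus Axin2, Lgr5, Nkd1, Rnf43 and Znrf3. The rule found 42 of the 39017 genes in the table, of which 19 are ligands, 10 are Frizzled receptors, 8 are inhibitors and 5 are targets.

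Wnt proteins are secreted lipid-modified ligands that bind Frizzled receptors together with Lrp5 or Lrp6. In the canonical branch this stabilises beta-catenin, which enters the nucleus and activates target genes with Tcf and Lef factors, while other ligands such as Wnt5a mainly act through polarity and calcium routes. Sfrp proteins bind ligands outside the cell, and Dkk1 acts on the Lrp co-receptors. Axin2 and Nkd1 are targets that feed back on the pathway, Lgr5 is a receptor for R-spondins, and Rnf43 and Znrf3 are ubiquitin ligases that remove Frizzled receptors from the cell surface. In pancreatic cancer, loss of Rnf43 is known to make tumour cells depend on Wnt ligands.

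RNA was sequenced in bulk from tumours of clones of mouse pancreatic tumour cells. Each clone was grown under the skin of C57BL/6 mice for 3 weeks without treatment. The labels sort the clones by T cell phenotype into high (15 tumours of 7 clones), low (15 of 7) and intermediate (4 of 2). Another 3 tumours carry no phenotype and entered no comparison. The sources used here give neither the way the phenotype was measured nor the meaning of the number in a clone's name. Every clone is 1 line, so a phenotype group is a handful of lines and not a genotype, and each tumour also holds cells of the mouse that carried it. In such bulk RNA, fewer cells of a type and less RNA per cell cannot be told apart.

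The libraries fell into a pair of classes. In 17 of the 34 libraries with a phenotype, the summed level of the heart myosins Myh6 and Myh7 and the liver genes Cps1 and Serpina3k was 257.7 to 5922 CPM (counts scaled to the library's total), and in the other 17 it was at most 0.539 CPM. All 16 tumours numbered 1 were in the first class. The second is called without liver and heart transcripts by these 4 genes only: the liver gene Alb, which is not in the sum, was still at 124 CPM in the library of low clone bulk_6419c1 and at 10.8 to 16.7 CPM in 1 library each of bulk_6499c3, bulk_6422c5 and bulk_2838c3. Unless stated otherwise, values below are CPM with TMM scaling from the 17 libraries without liver and heart transcripts, summed per clone, which leaves 7 high, 2 intermediate and 6 low clones, and none for low clone bulk_6422c1. Only bulk_2669c4 and bulk_2838c3 had 2 such libraries. The value of any other clone is that of 1 tumour, so clone and tumour cannot be told apart there. Total counts of the 17 libraries ranged from 26.5 to 44.4 M per library, against 7.39 to 102 M with those transcripts. A list of 11 liver and heart markers summed to 323 to 778 CPM (median 373) in high clones. It summed to 304 to 551 CPM in intermediate and 431 to 627 CPM (median 577) in low clones. Only 5 of the 11 had enough counts to be tested between phenotypes. Under 0.1 CPM in every clone of the group were 2 of the 11 in high, 5 in intermediate and 3 in low clones, so the sum comes from part of the list. Ductal epithelial markers were present in every clone, at a summed 4459 to 10654 CPM in high, 6056 to 7077 in intermediate and 5762 to 8989 in low clones, and none of the 10 markers was at 0 in a whole group.

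The tumours carried many Wnt components at once. A mean of at least 1 CPM over the 15 clones was reached by 12 of the 19 ligands, 8 of the 10 Frizzled receptors, 5 of the 8 inhibitors and all 5 targets. Levels of different genes are compared here only as CPM per kilobase of exon, and these gave the inhibitor Sfrp2 the highest median over clones, 24.8, followed by the receptor Fzd1 at 22.7. Among receptors, Fzd2 (median 9.99 CPM per kilobase), Fzd5 (9.94), Fzd6 (8.62) and Fzd7 (6.82) came next, and Fzd4 (1.19) and Fzd8 (0.552) lay lower. The most abundant ligands per length were Wnt10a (7.55), Wnt7b (7.32) and Wnt5a (5.37), and their ranges over clones overlapped widely. Of the other inhibitors, Sfrp1 (9.96), Dkk3 (7.95) and Dkk2 (5.21) lay in the range of the leading receptors. Of the targets, Rnf43 had the highest median, 3.91 CPM per kilobase, and Nkd1 (0.686) and Lgr5 (0.684) the lowest.

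**Figure D1:**
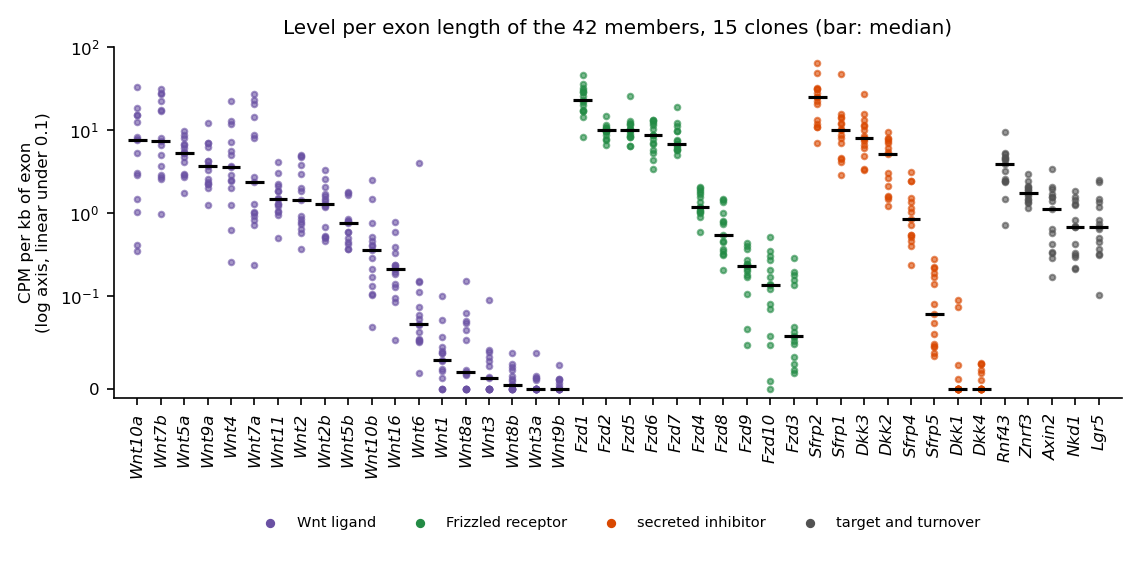
Level of the 42 genes in CPM per kilobase of exon (log axis, linear under 0.1), 1 point per clone (15 clones) and a bar at the median, coloured by role. Sfrp2 and Fzd1 have the highest medians, and the ligand points spread more widely than those of the 5 leading Frizzled receptors.

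The other 12 genes stayed under a mean of 1 CPM. They include Wnt1 and Wnt3a, classical activators of beta-catenin, with Wnt3, Wnt8a, Wnt8b and Wnt9b, the receptors Fzd9 and Fzd10, and the inhibitors Dkk1, Dkk4 and Sfrp5. Apart from Wnt6, none of them passed 1.67 CPM in any clone. Dkk1 had no read in 11 of 15 clones and Wnt3a in 10 of 15, which allows a level of up to 0.0376 to 0.110 CPM per clone, so expression below that was not detectable at this depth. These limits cover counting error only.

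The clones differed from each other. Of the genes with at least 1 CPM on average, the receptor Fzd2 (2.20-fold) and the target Znrf3 (2.53-fold) ranged least from lowest to highest clone. For the ligand Wnt7a the clones ran from 0.754 CPM in intermediate clone bulk_6422c5 to 87.1 in intermediate clone bulk_7160c5. Over the 30 genes with a mean of at least 1 CPM, the ratio of the highest to the lowest clone had a median of 8.88, and 13 genes passed 10-fold. Between the 2 tumours of bulk_2669c4 the same genes differed by a median of 1.24-fold, and between those of bulk_2838c3 by 1.57-fold, although a range over 15 clones is wider than one over 2 tumours by construction. The joint test among clones used all 34 tumours with the library class as a term. It called 27 of the 36 genes that passed its filter, beside 31.5% of all genes tested (edgeR, adjusted p under 0.05). That filter can keep a gene for its level in 1 clone. With no filter, 31 of 42 were called, beside 20.8% of genes. Without the class term 14 were called (12.1% of genes), with the tumour number as a replicate block in its place 22 (24.9%), and without clone bulk_2669c4 18 (18.6%). The 17 libraries without liver and heart transcripts alone, which leave 2 residual degrees of freedom, gave 0 (0.00526% of genes) and 21 at an unadjusted p under 0.05 (24.3% of genes).

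**Figure D2:**
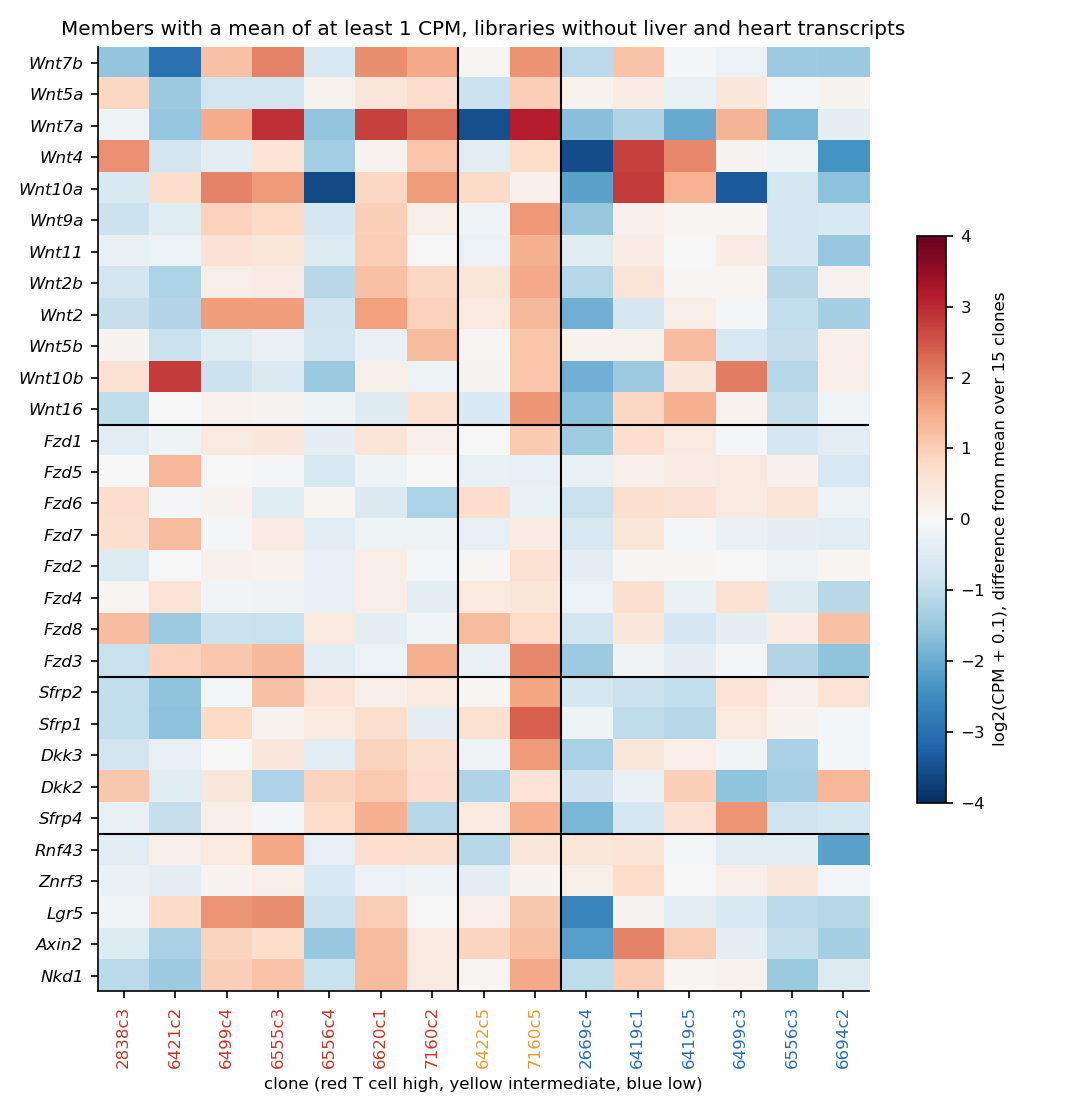
Log2(CPM + 0.1) of the 30 genes with a mean of at least 1 CPM in each of 15 clones, as the difference from the gene's mean over clones, with black lines between roles and between phenotypes (high, intermediate, low from left to right). The ligands Wnt7a, Wnt10a and Wnt4 show the strongest colours, from 0.754 to 87.1, 0.857 to 80.6 and 1.10 to 93.7 CPM, while the receptor Fzd2 is nearly even.

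Among ligands, 11 of 15 tested passed. Wnt7b, a ligand of epithelia that signals through beta-catenin, ran from 4.78 CPM in bulk_6421c2 to 151 in bulk_6555c3, both high clones (adjusted p = 0.00191, edgeR). Wnt7a, its close relative, was at 87.1 CPM in bulk_7160c5, 74.0 in bulk_6555c3 and 65.6 in bulk_6620c1, and at most 8.59 in 9 of the clones (adjusted p = 0.000544, edgeR). Wnt5a, a ligand of the polarity route, was steadier, from 13.8 CPM in bulk_6421c2 to 76.8 in bulk_7160c5, yet had one of the smallest p-values (adjusted p = 0.000185, edgeR). Its tumours without liver and heart transcripts lay close together in the 2 clones that had more than 1, at 42.9 and 45.4 CPM in bulk_2669c4 and at 73.3 and 67.7 in bulk_2838c3. Across the library classes they did not: with those transcripts the tumours were at 28.3 and 31.4 CPM in bulk_2669c4 and at 23.0 in bulk_2838c3. The class is a term of the test. Wnt2b ran from 1.96 to 14.1 CPM (adjusted p = 0.000164, edgeR).

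Wnt6 stood apart because of 1 clone. Its level was 8.81 CPM in low clone bulk_6419c1 and 0.0371 to 0.338 CPM in the other 14 clones. Both tumours of bulk_6419c1 carried it, at 9.08 and 1.90 CPM. The adjusted p among clones was 8.08e-06 with that clone and 0.187 without it (edgeR). The neighbouring gene Wnt10a lies next to Wnt6 on chromosome 1 (chr1:74771892-74785322 for Wnt6 and chr1:74791516-74804179 for Wnt10a, GRCm38), and was also highest in bulk_6419c1, at 80.6 CPM, with 0.857 in bulk_6556c4 and 1.03 in bulk_6499c3 at the low end. As for every clone but bulk_2669c4 and bulk_2838c3, the value of bulk_6419c1 comes from 1 library. It is the one with Alb at 124 CPM, and the same library gives the highest Wnt4 and Axin2. The part of that liver RNA in these levels was not tested.

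The other ligands with at least 1 CPM on average ranged widely too. Wnt4 ran from 1.10 to 93.7 CPM without passing the test among clones (adjusted p = 0.0757, edgeR), and Wnt11 from 2.11 to 16.9 (adjusted p = 0.0937, edgeR). Wnt9a ran from 4.14 to 40.4 CPM, Wnt2 from 0.829 to 11.2, Wnt5b from 0.978 to 4.81, Wnt10b from 0.229 to 8.59 and Wnt16 from 0.229 to 3.40, and all of these were called among clones. The call of Wnt16 was lost without bulk_7160c5 (edgeR adjusted p = 0.0743), and that of Wnt10b without bulk_6421c2 (0.107) or bulk_2669c4 (0.0594). Bulk_7160c5 was the highest clone for Wnt9a, Wnt11 and Wnt16.

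The receptors varied less than the ligands, and 8 of 10 passed among clones. Fzd1, a receptor of canonical ligands, ran from 35.1 CPM in bulk_2669c4 to 195 in bulk_7160c5 (adjusted p = 0.00154, edgeR). Fzd5, which binds several Wnt proteins and is the receptor that Rnf43-deficient pancreatic tumour cells depend on, was at 177.5 CPM in high clone bulk_6421c2 and at 44.7 to 89.1 CPM in the other 14 clones. It was called among clones (adjusted p = 0.0193, edgeR), but not without bulk_6421c2 (adjusted p = 0.442) or bulk_2669c4 (0.0593). Fzd7 was also highest in bulk_6421c2, at 85.2 CPM against 22.5 to 55.6 elsewhere. Fzd6 ran from 16.3 to 63.9 CPM, Fzd2 from 24.4 to 53.8, Fzd4 from 3.998 to 13.7, Fzd8 from 1.23 to 8.74 and Fzd3 from 0.222 to 3.67. Of these, Fzd4 did not pass (adjusted p = 0.0936, edgeR). The calls of Fzd2 and Fzd6 were lost without bulk_2669c4 (edgeR adjusted p = 0.107 and 0.0750), that of Fzd2 also without bulk_7160c5 (0.122), and that of the low-level Fzd9 without bulk_6421c2 (0.0517).

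Of the inhibitors, 5 of 6 tested passed among clones. Sfrp1 was at 210 CPM in bulk_7160c5 and at 12.7 to 69.0 CPM in the other 14 clones, and its call was lost without bulk_7160c5 (edgeR adjusted p of 0.00518 with it, 0.229 without). Sfrp2 was highest in the same clone, at 138.5 CPM, followed by 106 in bulk_6555c3, with 15.3 in bulk_6421c2 at the low end. Dkk3, a divergent Dkk protein, ran from 11.2 CPM in bulk_2669c4 to 91.6 in bulk_7160c5 (adjusted p = 0.000173, edgeR), and stayed called whichever clone was left out. Dkk2, which acts on Lrp co-receptors, ran from 4.53 to 34.8 CPM, but the 2 tumours of bulk_2838c3 alone differed 5.18-fold. Sfrp4 ran from 0.986 to 13.04 CPM. The call of Sfrp2 was lost without bulk_7160c5 (edgeR adjusted p = 0.0605), those of Dkk2 and Sfrp4 without bulk_2669c4 (0.115 and 0.0749), and that of Dkk2 also without bulk_6422c5 (0.0753) or bulk_6556c3 (0.0570).

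Summed fibroblast markers were also highest in bulk_7160c5, at 29748 CPM against 6221 to 18988 in high and 6869 to 17511 in low clones, and so were T cell markers, at 60.3 CPM against 4.63 to 27.8 in high and low clones. The same clone was highest in macrophage markers (4584 CPM against 909.8 to 2653 in the other clones), in smooth muscle and pericyte markers (885 against at most 608) and in endothelial markers (442 against at most 304). The part of these cells in the levels of Sfrp1, Sfrp2 and Dkk3 there was not tested.

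Over the 15 clones, Nkd1 and Lgr5 tended to be high where Axin2 was high. The same relation did not pass for Rnf43 and Znrf3, and no difference between the relations was tested. Axin2 (ENSMUSG00000000142, chr11:108920349-108950783, plus strand), a scaffold that feeds back on beta-catenin, ran from 0.929 CPM in bulk_2669c4 to 19.0 in bulk_6419c1. Nkd1 (chr8:88521354-88594884), which acts on Dvl proteins, ran from 0.978 CPM in bulk_6556c3 to 8.50 in bulk_7160c5. Both coordinates are those of GENCODE M21 (GRCm38). Lgr5 ran from 1.06 to 26.1 CPM, Rnf43 from 4.78 to 63.0 and Znrf3, the most even of the 5, from 9.21 to 23.3.

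Among clones, Lgr5 (edgeR adjusted p = 0.00919), Axin2 (0.0256) and Rnf43 (0.0440) were called, and Nkd1 (0.0511) and Znrf3 (0.297) were not. The calls of all 3 were lost without bulk_2669c4 (0.0853, 0.0924 and 0.0756), that of Axin2 also without bulk_6421c2 (0.0523), and that of Rnf43 without any of 5 other clones (0.0515 to 0.0876).

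On log2 CPM over the 15 clones, Pearson's r of Axin2 with Nkd1 was 0.853 (Spearman's rho 0.782). The permutation p was 9e-05, or 0.00036 adjusted over the 4 relations tested, and the p of rho was 0.00336 adjusted. Permutation takes the 15 clones as independent, although some share a number in their names, and the meaning of that number is not known here. Without the 2 clones farthest from the median of Axin2, bulk_2669c4 and bulk_6556c4, r was 0.855. Within the 7 high clones r was 0.944 (adjusted exact permutation p = 0.0175), but rho, at 0.857, did not pass (adjusted exact permutation p = 0.0881). Within the 6 low clones r was 0.836 and rho 0.771 (adjusted exact permutation p = 0.0778 and 0.206), and r fell to 0.478 without bulk_6419c1 and bulk_6419c5. Those 2 are the low clones farthest from the median of Axin2, so leaving them out narrows the range of Axin2 and leaves few clones. What the relation among low clones rests on cannot be told from this step.

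For Lgr5, which marks epithelial stem cells in the intestine, r with Axin2 was 0.686 and rho 0.671 (adjusted permutation p = 0.00916 and 0.0155), and r was 0.498 without the same 2 clones. Within low clones r was 0.899 and rho 1 (adjusted exact permutation p = 0.0333 and 0.0111), and r was 0.961 without bulk_6419c1 and bulk_6419c5. Within high clones r was 0.684 and rho 0.750 (adjusted exact permutation p = 0.104 and 0.0881), and r was 0.682 without bulk_6556c4 and bulk_6421c2. Rnf43 gave an r of 0.380 (adjusted permutation p = 0.218) and a rho of 0.425 (adjusted permutation p = 0.156). Znrf3 gave an r of 0.279 (adjusted permutation p = 0.313) and a rho of 0.211 (adjusted permutation p = 0.451), so neither relation passed. Within high clones Znrf3 gave an r of 0.787 (0.384 without bulk_6556c4 and bulk_6421c2) and Rnf43 an r of 0.680 (adjusted exact permutation p = 0.0821 and 0.104), close to that of Lgr5, and within low clones 0.420 and 0.351 (adjusted exact permutation p = 0.518 for both).

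**Figure D3:**
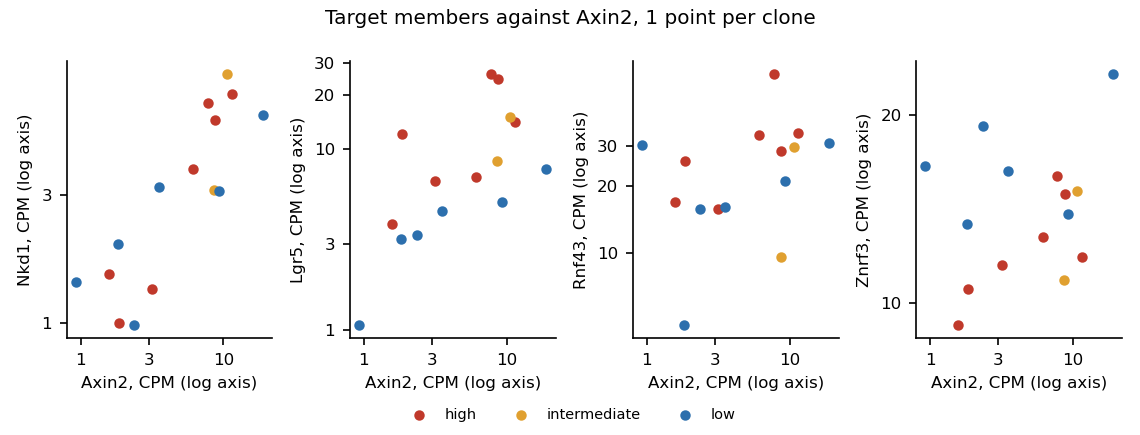
Level of Nkd1, Lgr5, Rnf43 and Znrf3 against Axin2 in CPM (both axes on a log scale), 1 point per clone, 15 clones, coloured by T cell phenotype. Nkd1 is higher in clones where Axin2 is higher (r = 0.853 on log2 CPM), and r over the 15 clones is 0.279 for Znrf3.

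Since Axin2 and Nkd1 moved together, their promoters are shown, as the 250 bases before the transcription start given by RefSeq (GRCm38.p6), 5′ to 3′ on the gene's strand, at chr11:108920099-108920348 and chr8:88527383-88527632.
Axin2: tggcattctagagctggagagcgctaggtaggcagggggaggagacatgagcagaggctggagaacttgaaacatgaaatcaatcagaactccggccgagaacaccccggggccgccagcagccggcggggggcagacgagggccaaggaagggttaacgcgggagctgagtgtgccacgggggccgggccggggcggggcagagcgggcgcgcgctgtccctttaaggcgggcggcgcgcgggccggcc
Nkd1: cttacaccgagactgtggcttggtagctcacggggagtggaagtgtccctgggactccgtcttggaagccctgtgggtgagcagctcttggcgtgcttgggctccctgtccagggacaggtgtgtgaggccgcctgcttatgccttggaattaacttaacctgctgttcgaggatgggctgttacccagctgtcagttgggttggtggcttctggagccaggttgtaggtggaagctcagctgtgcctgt
The core letters bound by Tcf and Lef factors, CTTTGA or CTTTGT on either strand, were searched in these windows, and a match would be in capitals. Neither window holds them. Of the 28 genes of the set found in the RefSeq table, 7 hold a match (7 of 32 promoters, 21.9%), beside 27.6% of all 32851 promoters. No match says only that these letters are not in this window. The Nkd1 window lies inside the gene's GENCODE M21 model, which starts at base 88521354, so the bases before that start were not searched.

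The first phenotype question is whether clones labelled T cell high and low differ in Wnt components. No gene of the set was called (0 of 34 tested), and neither was any of the 17905 genes tested (0%; edgeR, adjusted p under 0.05), nor any member with DESeq2, which gave 6 at an unadjusted p under 0.05 (7.44% of genes). At an unadjusted p under 0.05, edgeR gave 7 of 34, beside 6.52% of all genes. Of these 7, 5 were higher in high clones (3.32% of all genes), namely Lgr5, Fzd3, Wnt2, Wnt7a and Fzd9, and 2 were lower (3.2%), Wnt6 and Znrf3. The difference was positive for 25 of 34, with a median of 0.29 on the log2 scale, beside 49.6% positive and a median of 0.00 over all genes tested. In a test on simulated counts, 61% of genes changed 2-fold and 100% of those changed 4-fold were recovered in this comparison. All genes were given the same spread there, not that of the members between clones, so these shares need not hold for the members. Wnt7a (2.12 ± 0.97, SE) and Wnt6 (-3.19 ± 1.08) had estimated log2 differences past 4-fold here and were not called, so the 100% does not carry over to members that vary as they do.

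Lgr5 (ENSMUSG00000020140, chr10:115450311-115587780) had the smallest p of the set. Its level was 3.86 CPM at the lowest, 12.1 at the median and 26.1 at the highest of 7 high clones, and 1.06, 3.96 and 7.70 over 6 low clones. The groups overlapped, because the 3 high clones bulk_6556c4, bulk_2838c3 and bulk_7160c2 lay at 3.86, 6.62 and 7.02 CPM, within the range of the low clones. The means were 13.5 ± 8.79 (SD, n = 7) and 4.16 ± 2.23 CPM (n = 6). The log2 difference of 1.70 ± 0.49 (SE) did not pass (edgeR, p = 0.00312, adjusted p = 0.711). It kept its direction and stayed uncalled with every clone left out in turn, between 1.45 and 1.97, and was 1.25 with all libraries summed per clone.

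The ligands did not point 1 way: of 13 tested, 8 had a positive and 5 a negative difference. Besides Wnt6, the negative ones were Wnt4 (-0.56 ± 0.79, SE), Wnt16 (-0.36 ± 0.52), Wnt5b (-0.21 ± 0.43) and Wnt5a (-0.04 ± 0.36), each smaller than its SE. Wnt2, a canonical ligand often made by stroma, was at 1.46, 6.65 and 11.2 CPM (lowest, median and highest) in high clones and at 0.829, 1.90 and 4.12 in low clones. The high clones split, with bulk_6421c2, bulk_2838c3 and bulk_6556c4 at 1.46 to 1.93 CPM and the other 4 at 6.65 or more. The log2 difference was 1.53 ± 0.56 (SE; edgeR, adjusted p = 0.711).

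Wnt7a lay at 3.19, 27.3 and 74.0 CPM in high and 2.30, 3.55 and 25.3 in low clones, with a log2 difference of 2.12 ± 0.97 (SE; edgeR, adjusted p = 0.758). The low clone at 25.3 CPM was bulk_6499c3. Wnt7b pointed the same way, at 4.78, 86.2 and 151 CPM in high against 13.4, 25.3 and 83.2 in low clones, with 1.19 ± 0.70 (SE; edgeR, adjusted p = 0.820). The same 4 high clones, bulk_6499c4, bulk_6555c3, bulk_6620c1 and bulk_7160c2, were the 4 highest of the high clones for Wnt2, Wnt7a and Wnt7b. Wnt6 gave -3.19 ± 1.08 (SE; edgeR, adjusted p = 0.711), and this came from bulk_6419c1: without it the difference was 0.34.

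Receptors and targets gave smaller numbers. Fzd3, a receptor of the polarity route, was at 0.433, 1.76 and 2.53 CPM in high and 0.222, 0.4996 and 0.854 in low clones, with a log2 difference of 1.51 ± 0.53 (SE; edgeR, adjusted p = 0.711). Fzd9 was under 1.1 CPM in every clone, with means of 0.662 ± 0.262 (SD, n = 7) and 0.340 ± 0.198 CPM (n = 6) and a difference of 0.93 ± 0.40 (SE; edgeR, adjusted p = 0.758). Znrf3, the receptor-removing ligase, was lower in high clones, at 9.21, 11.9 and 16.001 CPM against 13.4, 16.4 and 23.3, with a difference of -0.46 ± 0.18 (SE; edgeR, adjusted p = 0.724). The groups overlapped for all 3 genes.

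Axin2, the target most often read as a sign of canonical activity, lay at 1.58, 6.13 and 11.5 CPM in high and 0.929, 2.94 and 19.0 in low clones, with a difference of -0.08 ± 0.64 (SE; edgeR, adjusted p = 0.994). Nkd1 gave 0.48 ± 0.53 and Rnf43 0.65 ± 0.41 (SE; edgeR, adjusted p = 0.899 and 0.823). Rnf43 was at 15.7, 28.6 and 63.0 CPM in high and 4.78, 18.6 and 31.0 in low clones. None of the 6 inhibitors tested had an unadjusted p under 0.05 here. Some clone names share a number across phenotypes: Lgr5 was at 24.5 CPM in high clone bulk_6499c4 and 4.56 in low clone bulk_6499c3, but at 3.86 in high clone bulk_6556c4 and 3.36 in low clone bulk_6556c3.

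**Figure D4:**
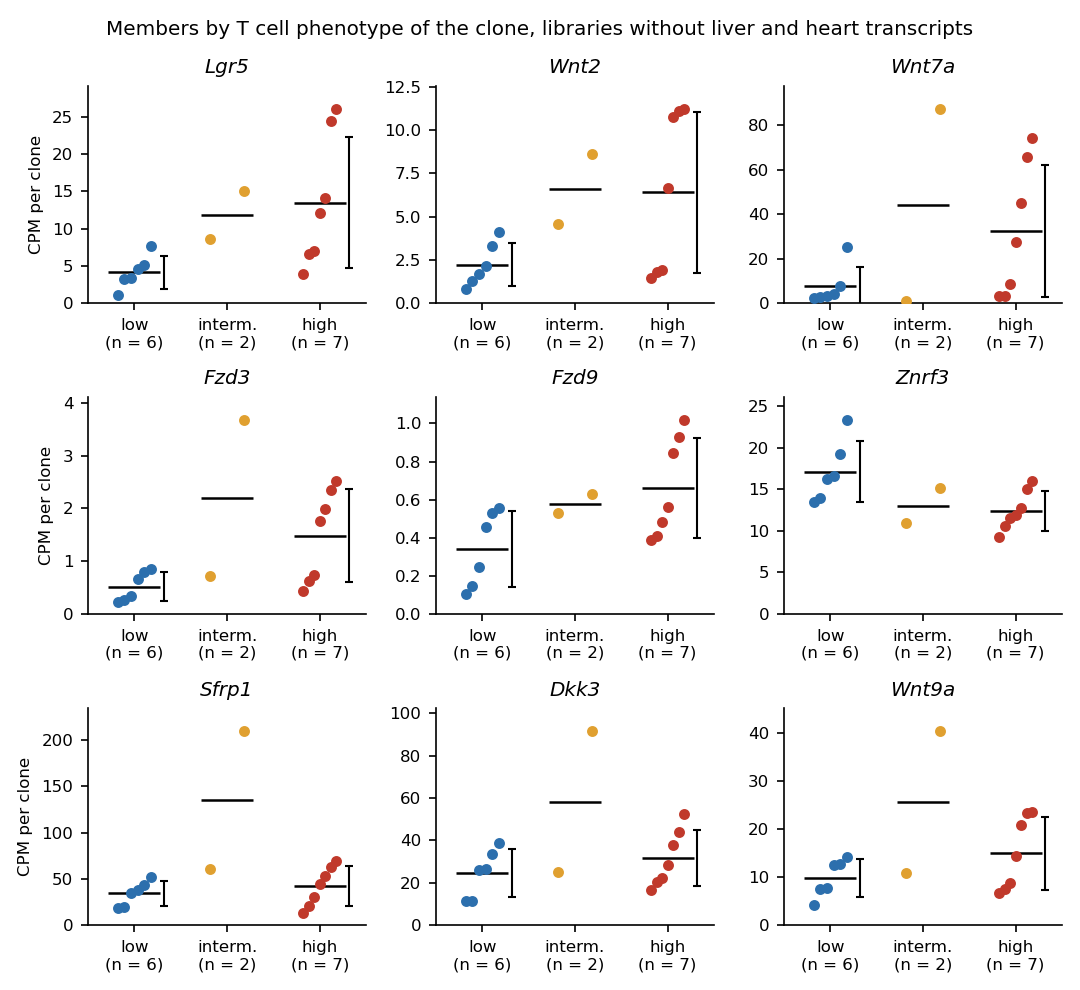
CPM per clone of 9 genes in low (n = 6), intermediate (n = 2) and high (n = 7) clones, libraries without liver and heart transcripts, with a line at the mean and an error bar of 1 SD for low and high. For Lgr5 and Wnt2 some of the high clones lie within the range of the low clones, and for Sfrp1, Dkk3 and Wnt9a 1 of the 2 intermediate clones lies above every other point.

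Beside these values, summed T cell markers were 8.75 to 27.8 CPM in high and 4.63 to 21.2 in low clones, and all 10 markers had a positive difference (3 at an unadjusted p under 0.05, edgeR). Summed fibroblast markers overlapped fully, at 6221 to 18988 and 6869 to 17511 CPM, with none of 10 at that level. Of the 10 ductal epithelial markers, 4 were at that level, and 5 differences were positive and 5 negative. The part of these cell types in the Wnt values was not tested.

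The intermediate clones were set beside the low and the high clones. No gene of the set was called against low clones (0 of 34; 0% of 17905 genes; edgeR, adjusted p under 0.05; DESeq2 also called none, with 9 at an unadjusted p under 0.05, beside 7.07% of genes). By edgeR, 8 of 34 had an unadjusted p under 0.05, beside 6.27% of all genes, and all 8 were higher, in a comparison where 4.85% of all genes were higher and 1.42% lower at that level. They were Sfrp1 (log2 difference 1.97 ± 0.54, SE), Fzd3 (2.09 ± 0.69), Wnt9a (1.39 ± 0.55), Dkk3 (1.24 ± 0.52), Lgr5 (1.51 ± 0.64), Fzd10 (2.04 ± 0.92), Wnt11 (1.06 ± 0.49) and Wnt2 (1.57 ± 0.74). The median difference was 0.73, beside -0.01 over all genes tested. Both rest on bulk_7160c5: without it, 0 of 34 had an unadjusted p under 0.05 (edgeR; 5.19% of all genes), 0 passed after adjustment, and the median was 0.12. The intermediate group is then 1 clone, assumed to vary like the clones of the other groups.

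The 2 intermediate clones were unlike each other. Sfrp1 was at 210 CPM in bulk_7160c5 and 60.6 in bulk_6422c5, against 17.9, 36.4 and 52.2 (lowest, median and highest) in low clones. Dkk3 was at 91.6 and 25.2 CPM, against 11.2, 26.4 and 39.0, and Wnt9a at 40.4 and 10.9 CPM, against 4.14, 10.1 and 14.1. Fzd3 was at 3.67 and 0.716 CPM, Wnt11 at 16.9 and 5.35, Wnt2 at 8.62 and 4.56 and Fzd10 at 1.67 and 0.452, in each case higher in bulk_7160c5. For Dkk3 and Wnt9a, bulk_6422c5 lay inside the low range, and without bulk_7160c5 the differences were 0.04 and 0.17.

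Wnt7a showed this most, with 87.1 CPM in bulk_7160c5, the highest of all clones, and 0.754 in bulk_6422c5, the lowest. The difference from low clones was 2.56 ± 1.23 (SE; edgeR, adjusted p = 0.787), and -3.29 without bulk_7160c5. Lgr5 was steadier, at 15.1 and 8.59 CPM, both above the highest low clone. With the 34 tumours taken as separate samples and the clone ignored, 5 members were called against low (beside 2.26% of genes), namely Sfrp1, Fzd3, Lgr5, Dkk3 and Wnt9a, and 7 with the tumour number as a replicate block (4.7% of genes). However, tumours of a clone share the implanted cells, and 4 tumours then stand for 2 clones.

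Against high clones no gene of the set was called (0 of 34, beside 0.00559% of genes; edgeR, and DESeq2 also called none, with 1 at an unadjusted p under 0.05, beside 4.64% of genes). By edgeR, Sfrp1 alone had an unadjusted p under 0.05 (log2 difference 1.69 ± 0.52, SE; edgeR, adjusted p = 0.9996), beside 3.94% of genes. All 10 fibroblast markers were positive in both comparisons with intermediate clones, and 6 of 10 against low and 5 of 10 against high had an unadjusted p under 0.05 (edgeR). The summed level was 29748 CPM in bulk_7160c5 and 13939 in bulk_6422c5. Frzb, another secreted Sfrp-type inhibitor, was also higher against low clones, at 4.56 and 1.09 CPM against 0.336 to 1.15 (1.94 ± 0.44, SE; edgeR, adjusted p = 0.543).

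The rest of the pathway was read from 8 lists of 77 genes. In high minus low clones none of the 71 tested was called, and 9 had an unadjusted p under 0.05 (edgeR; 6.52% of all genes), 4 higher and 5 lower, with a median difference of -0.01. Ctnnb1, which encodes beta-catenin, averaged 1865 ± 547 CPM over the high clones (SD, n = 7) and 1207 ± 214 CPM over the low ones (n = 6), and its log2 difference was 0.63 ± 0.20 (SE; edgeR, adjusted p = 0.711). Most of its list, the cytoplasmic pathway, went the other way: 2 of 16 genes were positive and 14 negative, with a median difference of -0.12. Kremen2, a Dkk co-receptor, was under 2.5 CPM throughout, with a log2 difference of 2.73 ± 0.95. Among nuclear partners Pygo2, which links beta-catenin to chromatin, gave -0.42 ± 0.12, and among polarity genes Daam1, a formin downstream of Dvl, gave -0.62 ± 0.19 (SE; edgeR, adjusted p = 0.711 for all 3). Of the 13 nuclear partners, 9 were positive and 4 negative. Ephb2, a beta-catenin target in the intestine, gave 1.24 ± 0.54 (SE; edgeR, adjusted p = 0.758). The smallest p of the other lists belonged to Porcn, which adds the lipid to Wnt proteins (0.69 ± 0.36), Rspo3, an R-spondin (-1.04 ± 0.57), and Wif1, a secreted inhibitor (-1.73 ± 1.15), with edgeR adjusted p-values of 0.796, 0.796 and 0.831.

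Among clones, 34 of 74 genes of these lists were called, beside 31.5% of all genes (edgeR, adjusted p under 0.05). The targets Myc (adjusted p = 0.000224), Sox9 (0.000608) and Ephb2 (0.00101) led their list, in which 8 of 11 were called. Of the co-receptors and alternative receptors 6 of 9 were called, led by Kremen2 (0.000123), Ror1 (0.000611), a Wnt5a receptor, and Ryk (0.00207), a Wnt receptor. Of the polarity genes 8 of 12 were called, led by Daam1 (0.000556), Vangl2 (0.00121) and Prickle1 (0.00165). Of the nuclear partners 7 of 13 were called, led by the corepressors Tle4 (0.00327), Tle1 (0.00726) and Tle3 (0.0121). The R-spondin list gave 3 of 5, the receptor Lgr6 (0.00842) with Rspo3 (0.0155) and Rspo2 (0.0190), and the other inhibitors 1 of 5, Draxin (0.00242). In the cytoplasmic pathway 1 of 16 was called, the kinase Csnk1a1 (0.0441), and of the 3 genes of Wnt secretion and inactivation none was, with 1 at an unadjusted p under 0.05.

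Libraries with liver and heart transcripts gave different values for the same clones. Within clones, 21 of 36 genes of the set differed between the classes, beside 47.5% of all genes tested (edgeR, adjusted p under 0.05), 9 higher (24.4% of all genes) and 12 lower (23.1%) in libraries with those transcripts. Nkd1 was higher with them in 12 of 15 clones, by 1.04 ± 0.23 on the log2 scale (SE; adjusted p = 0.000948), and Axin2 in 10 of 15, by 0.63 ± 0.25 (adjusted p = 0.0412), a call that was lost on leaving out any of 8 clones. Wnt7a was higher by 1.11 ± 0.31 (adjusted p = 0.00516). Wnt9b, a ligand of the developing kidney, was at 0.0298 to 0.953 CPM with those transcripts and at 0 to 0.121 without them, and was higher in 15 of 15 clones. It passed the filter only through the libraries where it is high, so its test is not given. The counts of 21 called and 9 higher above include Wnt9b. The part of liver, heart or other tissue in these differences was not tested.

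Lower with those transcripts were Sfrp2, with a log2 difference of -1.39 ± 0.26 (SE; lower in 13 of 15 clones; edgeR, adjusted p = 0.000134), Fzd2, with -0.88 ± 0.11 (14 of 15; adjusted p = 1.09e-06), Wnt5a, with -0.76 ± 0.12 (14 of 15; adjusted p = 1.45e-05), and Fzd5, with -0.56 ± 0.11 (15 of 15; adjusted p = 0.000257). Lgr5 (0.19 ± 0.25) and Wnt7b (-0.02 ± 0.25) did not pass. The 4 libraries highest in liver and heart transcripts, from bulk_2838c3, bulk_6419c5, bulk_6499c4 and bulk_6555c3, were alike. Their Wnt7b lay between 38.1 and 42.6 CPM, where the other tumours of those clones ran from 10.2 to 154 CPM. Over 30 genes the highest of the 4 was a median of 1.22 times the lowest, against 3.45 times for the tumours of the same clones without such transcripts, and the range was narrower for 30 of 30 genes. Without these 4 libraries, 14 members differed between the classes (37.5% of genes), and 27 differed among clones (31.8% of genes).

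**Figure D5:**
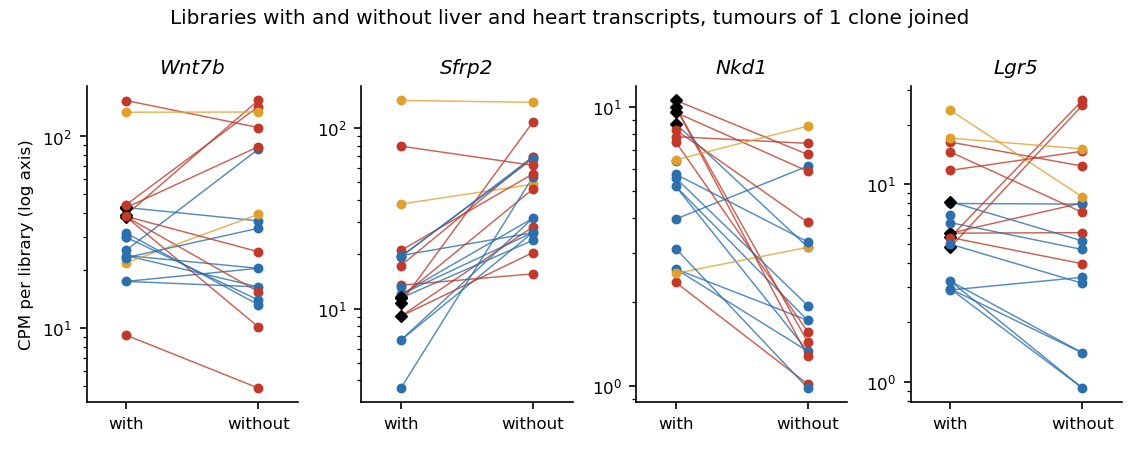
CPM per library (log axis) of 4 genes in libraries with and without liver and heart transcripts, with lines joining tumours of a clone, coloured by phenotype (red high, yellow intermediate, blue low), and black diamonds for the 4 libraries highest in those transcripts. The diamonds lie close together for Wnt7b, between 38.1 and 42.6 CPM, while the other tumours of the same clones spread from 10.2 to 154.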

How the data were processed

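The deposited table gives unnormalised read counts per gene for 37 libraries, and the submitters' processing notes name STAR, featureCounts and mm10. Strand setting, annotation and treatment of shared reads were not given in these sources, so members with an overlapping gene are uncertain: on the opposite strand Axin2, Lgr5, Rnf43, Sfrp2, Wnt5a, Wnt5b, Wnt6, Wnt7b, Wnt11, Fzd3, Fzd5 and Fzd6, and on the same strand Nkd1, Wnt2b, Rnf43 and Fzd3. Tumours of a clone were summed, since they share the implanted cells, and edgeR 4.0.16 (R 4.3.3) gave the quasi-likelihood tests with TMM scaling, its default filter and Benjamini-Hochberg adjustment over all genes tested (threshold 0.05, two-sided). SEs are approximate, from the difference and the F statistic. The test among clones used the 34 tumours with a library class term. A library with over 10 CPM of Myh6, Myh7, Cps1 and Serpina3k counted as having liver and heart transcripts. Relations used log2 CPM (prior count 2) and 100000 permutations, or all pairings within phenotypes. Coordinates and exon lengths are from GENCODE M21, where all 42 genes were found.

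The members and the lists were chosen with earlier results of these data known. Named with values were the 5 targets, members with a mean of at least 1 CPM, members with an unadjusted p under 0.05 in a phenotype comparison and the 5 with the smallest p among clones. Of each pathway list, the gene with the smallest p in high minus low and up to 3 called among clones were named; Frzb was named after its values were seen. Alternatives were DESeq2 1.42.0, other scaling, no filter, all libraries, an added limit on Alb, single tumours, a replicate block and leaving out each clone. A difference smaller than its SE was taken to have no direction. Nothing says that tumours of a clone came from separate cultures, so p-values among clones measure the spread between these tumours. On simulated counts with the same spread for every gene, the test among clones recovered 64% of genes changed 2-fold.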

Additional observations from a re-analysis of the deposited data

Results flagged for a closer look

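In 66 groups of 6 or 7 clones, 3 had 1 clone set apart from the others by Dixon's criterion, and chance alone sets apart about 1 in 20 such groups. Fzd5 was at 177.5 CPM in high clone bulk_6421c2, and at 44.9 to 70.9 CPM in the other high clones. Rnf43 was at 4.78 CPM in low clone bulk_6694c2, and at 15.8 to 31.0 in the other low clones. Wnt6 was at 8.81 CPM in low clone bulk_6419c1, and at 0.111 to 0.175 in the other low clones.

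The 3 tumours without a phenotype label entered no comparison, and 10 members had a level there above that of all 34 labelled libraries. Tumour 1 of bulk_6883c1 was the deepest library, at 161.7 M counts, and had 106 CPM of liver and heart transcripts. In it, the inhibitors Dkk2 and Dkk3 were at 104.9 and 119 CPM, against at most 47.6 and 91.9 in labelled libraries. The ligands Wnt10a, Wnt5a and Wnt6 were at 123, 86.9 and 10.6 CPM there, against at most 83.0, 77.1 and 9.08. The receptor Fzd2 was at 64.2 CPM and the ligase Znrf3 at 26.0, against at most 54.0 and 24.0. In tumour 2 of bulk_7062c3, Sfrp2 was at 149.9 CPM and Fzd9 at 1.26, against at most 142 and 1.07. In tumour 1 of bulk_6883c4, Sfrp4 was at 15.9 CPM, against at most 13.4.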

How the results depend on the processing

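With 2 intermediate clones and 6 or 7 in the other groups, the phenotype comparisons called few genes, and the counts moved with the setting. DESeq2 called 39 genes in high minus low, 23 in intermediate minus low and 15 in intermediate minus high, and 10135 among clones. Single tumours with the clone ignored and no replicate block gave 38, 421 and 4 genes for the 3 phenotype comparisons, with 5 members in intermediate minus low; with the tumour number as a replicate block, high minus low gave 0 genes, intermediate minus low gave 874 genes and 7 members (4.70% of genes) and intermediate minus high 18 genes. The number pairs nothing by the labels, and differences between tumours 1 and 2 correlated over 0.1 for 68 of 105 pairs of clones (30 members). Among labelled tumours, 16 numbered 1 and 1 numbered 2 were in the class with liver and heart transcripts, and 14 numbered 2 in the other. Tumour number and library class can thus hardly be told apart in these differences. Leaving out libraries with Alb over 10 CPM, which leaves bulk_7160c5 as the only intermediate clone, gave 12 genes in intermediate minus low and 0 in intermediate minus high, all libraries summed per clone also gave 0 there, and, under the Alb limit, the difference of Wnt6 in high minus low became 0.33. Among clones, dropping the class term gave 2468 genes and 14 members, a replicate block in its place 5094 genes and 22 members, and the 17 libraries without liver and heart transcripts alone 1 gene and 0 members (21 at an unadjusted p under 0.05, edgeR), where 2 residual degrees of freedom remain. The last setting and that without 4 libraries were chosen after seeing the data. Leaving out each clone gave 0 to 1 gene in high minus low, 0 to 147 in intermediate minus low (147 without bulk_6422c5), 0 to 5 in intermediate minus high, 3789 (without bulk_2669c4) to 6827 among clones, and 1 to 2 relations with Axin2 past the threshold. Where 1 intermediate clone is left, it is assumed to vary like the clones of the other groups. Of the 27 members called among clones, 13 stayed called whichever clone was left out, and without bulk_2669c4 18 members were called (18.6% of genes). Over the same settings Wnt6 ran from -3.45 to 0.34 in high minus low; in intermediate minus low Wnt16 ran from -0.99 to 1.59 and Wnt7a from -3.29 to 3.55; in intermediate minus high Dkk3 ran from -0.32 to 1.54, Fzd1 from -0.11 to 0.92, Sfrp2 from -0.12 to 1.39, Wnt11 from -0.45 to 1.21, Wnt16 from -0.64 to 1.94 and Wnt9a from -0.45 to 1.44, each at its lowest without bulk_7160c5. The cause of these changes was not tested.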
